A study of Mus musculus with 15 samples.

Results

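The genes described here are 10 genes of the smooth muscle type contractile apparatus, Acta2, Tagln, Cnn1, Myl9, Tpm1, Tpm2, Actg2, Mylk, Lmod1 and Cald1. They were listed by symbol and found through the Ensembl identifiers of the count tables, 10 of 46603 identifiers. The rule is a list of symbols and sets no threshold on measured values, but the list was drawn up with earlier results of these data known. Mouse embryonic fibroblasts (MEFs) are primary connective tissue cells grown from whole embryos, here wild-type BALB/c embryos of 10.5 days, and such cultures hold mixed cell types. MEFD0 was harvested at day 0 in growth medium with 10% FBS. MEFD3min and MEFD5min stayed in growth medium to day 3 and day 5. MEFD3plu received 0.5 mM 3-isobutyl-1-methylxanthine (a phosphodiesterase inhibitor), 10 µg/mL insulin, 1 µM dexamethasone (a glucocorticoid) and 10 µM rosiglitazone (a PPARγ ligand) for 3 days. MEFD5plu had the same 3 days of treatment and then growth medium without these agents, so MEFD5plu cells were formerly treated. Each of the 5 conditions had 3 RNA-Seq samples, numbered 1, 3 and 4, with 24030558 to 37281126 counts assigned to genes. The sources do not say whether the 3 samples were separate MEF isolates or cultures, so the p-values measure the spread between these samples.

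Smooth muscle contracts when calcium activates the kinase encoded by Mylk, which phosphorylates the regulatory light chain of myosin (Myl9) and lets myosin pull on actin filaments. The filaments contain smooth muscle actins (Acta2, Actg2) and are wrapped by tropomyosins (Tpm1, Tpm2). Caldesmon (Cald1) and calponin (Cnn1) bind the filaments and restrain myosin, transgelin (Tagln) cross-links them, and leiomodin (Lmod1) starts new ones. Fibroblasts on rigid culture plastic use many of the same proteins in stress fibers, and Acta2 is the usual marker of the myofibroblast state. Transcription of several of these genes depends on serum response factor (SRF), which binds CArG boxes, and on MRTF coactivators, which enter the nucleus when free actin monomers become scarce. Loss of stress fibers and rounding of the cells accompany adipocyte differentiation in culture.

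Promoter sequences were matched in RefSeq (GRCm38.p6) for 8 of the 10 genes, giving 9 promoters because Cald1 had a pair; Tagln and Actg2 were not matched. The 250 bases before each start were searched on both strands for 3 elements. These were the CArG box (its name stands for CC, 6 letters that are A or T, and GG), a CArG-like form with 1 G or C among those 6 letters, and the MCAT element of TEAD factors (CATTCC). The windows below show the CArG and MCAT letters of Acta2 and Myl9, genes of the group that fell with treatment, and of Mylk and Lmod1, which did not. Capitals mark the element, and 10 bases are shown on either side.
Acta2, CArG-like, 84 bases before the start, chr19:34255438-34255467, minus strand: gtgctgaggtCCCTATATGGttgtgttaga
Acta2, CArG-like, 34 bases before the start, chr19:34255388-34255417, minus strand: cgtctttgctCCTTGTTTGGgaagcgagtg
Acta2, MCAT, 146 bases before the start, chr19:34255504-34255529, minus strand: gcagaacagaGGAATGcagtggaaga
Myl9, CArG box, 161 bases before the start, chr2:156775293-156775322, plus strand: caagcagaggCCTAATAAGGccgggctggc
Myl9, CArG-like, 99 bases before the start, chr2:156775355-156775384, plus strand: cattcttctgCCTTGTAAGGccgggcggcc
Mylk, MCAT, 158 bases before the start, chr16:34784782-34784807, plus strand: cagttcagaaCATTCCctggtacgtg
Lmod1, MCAT, 130 bases before the start, chr1:135324673-135324698, plus strand: aagattccctGGAATGtcctcaagtt

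The starts of that table before which elements were found lie inside the annotated genes, by far the furthest for Mylk. The windows shown for Acta2 and Mylk therefore also lie inside the annotated genes. The MCAT letters also stood 56 bases before the start of Tpm1 and 153 bases before a start of Cald1. Thus 1 member promoter held a CArG box, 2 held a CArG-like form and 5 held MCAT. Among all 32851 promoters of the table, 1.47% held a CArG box, 7.24% a CArG-like form and 12.6% MCAT. MCAT letters stood before genes that fell with treatment and before Mylk and Lmod1 alike. The elements were chosen with the expression results known, and a match of letters is a description and not a binding site.

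Levels were taken as CPM, the counts of a gene scaled to library size with edgeR's TMM factors, and levels of different genes were compared only as CPM per kilobase of annotated exon. In MEFD0, Acta2 was highest at 145 ± 9.37 CPM per kb (SD, n = 3), followed by Tpm1 at 104 ± 1.14 and Tagln at 96.7 ± 9.77, whose samples overlapped. Tpm2 (82.3 ± 4.20 CPM per kb) and Cald1 (74.1 ± 0.981) came next, and Myl9 was far lower at 6.67 ± 0.743 CPM per kb. Mylk, Actg2 and Cnn1 lay between 0.343 and 0.494 CPM per kb with overlapping neighbours, and Lmod1 was lowest at 0.0398 CPM per kb. The order changed with condition. In MEFD3plu, Cald1 led at 40.1 ± 2.05 CPM per kb, ahead of Tpm1 (17.7 ± 0.222), Tpm2 (14.4 ± 0.548), Acta2 (6.59 ± 1.06) and Tagln (3.50 ± 0.584), with no overlap between neighbours. In MEFD5min, Acta2 led again at 210.0 ± 9.98 CPM per kb, and Tagln (155 ± 14.5) overlapped Tpm1 (146 ± 6.76). In MEFD5plu, Cald1 led at 76.5 ± 0.620 CPM per kb, above Tpm1 (62.3 ± 0.336), which overlapped Tpm2 (58.9 ± 3.50). Exon length was the union over all transcripts, which understates genes with many isoforms such as Tpm1 (21 transcripts) and Cald1 (18 transcripts). Smooth muscle and non-muscle isoforms of Tpm1, Tpm2, Mylk and Cald1 are counted together in these gene counts.

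**Figure D1:**
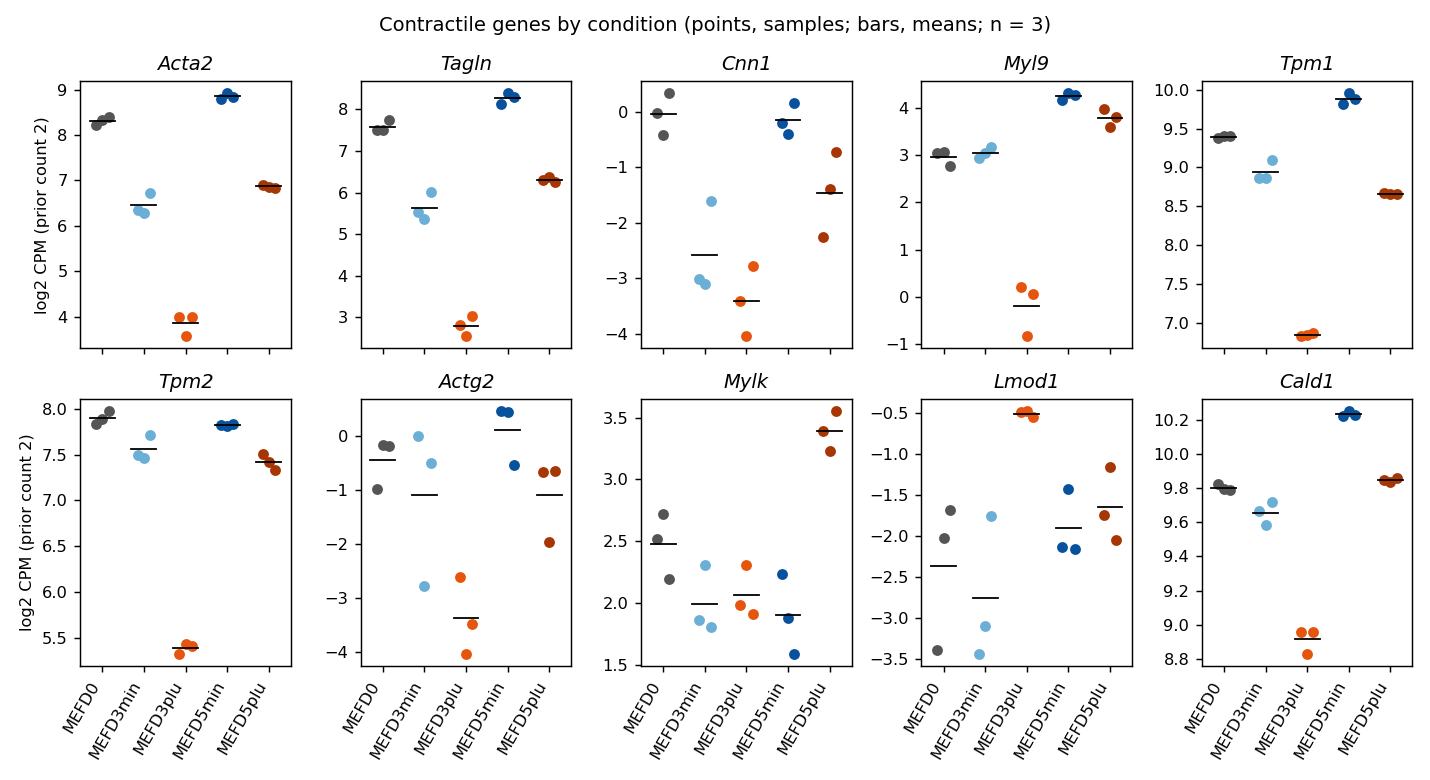
Level of each contractile gene in each sample, as log2 CPM with a prior count of 2, over the 5 conditions. Points are samples, bars are means (n = 3), and each panel has its own scale. Most genes were lowest in MEFD3plu and highest in MEFD5min, Mylk was highest in MEFD5plu, and Lmod1 was highest in MEFD3plu.

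The comparison of treated with untreated cells asks how the contractile genes stood in cultures under adipogenic treatment. On day 3, 7 of the 10 genes were lower in MEFD3plu than in MEFD3min (Acta2, Tagln, Myl9, Tpm1, Tpm2, Actg2 and Cald1), 1 was higher (Lmod1), and Cnn1 and Mylk did not pass the test. Of all 15997 genes tested, 28.0% were called lower and 28.0% higher at an adjusted p under 0.05. The median log2 fold change was -2.14 over the 10 genes and -0.001 over all genes tested. On day 5, 7 genes were lower in MEFD5plu than in MEFD5min (Acta2, Tagln, Cnn1, Myl9, Tpm1, Tpm2 and Cald1), and Mylk was higher. The background on day 5 was 24.2% called lower and 26.3% called higher, and the medians were -0.84 over the 10 genes, -0.43 over the 8 genes without the scarce Cnn1 and Actg2, and 0.01 over all genes. In bulk samples, fewer cells that express a gene and less RNA per cell cannot be told apart. All 10 genes passed the filter on low counts. Cnn1 and Actg2 reached its level in all samples of MEFD0 and MEFD5min only, so that they entered the test through conditions in which they are high. The calls counted here for Actg2 on day 3 and Cnn1 on day 5 are therefore descriptions. Lmod1 reached the filter level in all samples of MEFD3plu only, so that it entered the test through the condition in which it is high and a difference there had to appear. The other 7 genes reached the level in all 15 samples.

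The time comparisons share samples with these: MEFD3min stands in the day 3 contrast and in both untreated steps, and MEFD3plu in the day 3 contrast and in MEFD5plu/MEFD3plu. From MEFD0 to MEFD3min, 6 genes fell (background 28.6%) and none rose (background 31.4%) in edgeR. None rose at an unadjusted p under 0.05 or in DESeq2 either, where 7 fell, Cald1 being the added gene. The median was -0.47 over the 10 genes and 0.04 over all genes. From MEFD3min to MEFD5min, 7 genes rose (background 21.3%) and none fell (background 21.5%) in edgeR, also at an unadjusted p under 0.05 and in DESeq2, with medians of 0.96 and -0.03. Against MEFD0, 5 genes were higher in MEFD5min (background 24.5%) and Mylk was lower (background 21.9%), with medians of 0.46 and 0.00. From MEFD3plu to MEFD5plu, 9 genes rose (background 33.8%) and Lmod1 fell (background 29.2%). The median of this step was 2.49, or 1.94 with Cnn1 and Actg2 taken at the bounds given with those genes, and 0.06 over all genes. The counts of genes above include Cnn1 in both untreated steps, and Cnn1 and Actg2 in MEFD5plu/MEFD3plu. Both genes entered the test through conditions in which they are high. Lmod1 entered it through MEFD3plu, so its fall from MEFD3plu to MEFD5plu is a description.

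**Figure D2:**
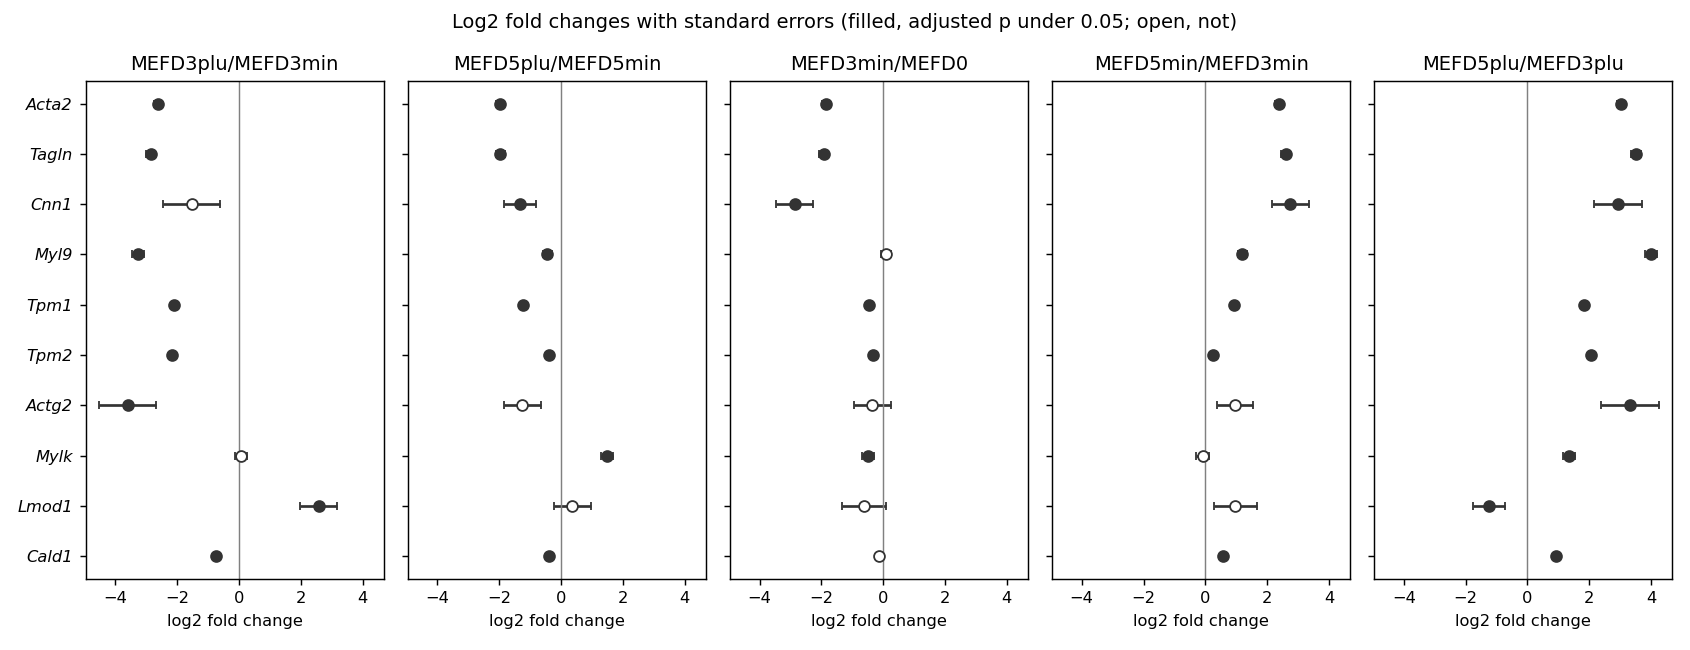
Log2 fold change of each contractile gene with its standard error in 5 comparisons (x axis), from edgeR. Filled points passed an adjusted p of 0.05 and open points did not. Most genes lay left of 0 in both treatment comparisons and in MEFD3min/MEFD0, and right of 0 in MEFD5min/MEFD3min and MEFD5plu/MEFD3plu. The points of Cnn1 and Actg2 that involve MEFD3plu are fitted values at a count floor.

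Acta2 (ENSMUSG00000035783, 19:34241090-34255590, minus strand, GRCm38) encodes smooth muscle α-actin. Its CPM was 297, 322 and 338 in MEFD0, then 81.4, 77.9 and 106 in MEFD3min and 15.9, 11.8 and 15.7 in MEFD3plu. It was 441, 485 and 458 in MEFD5min and 119.9, 116 and 114 in MEFD5plu. All MEFD3plu samples were below every other sample, all MEFD5min samples were above, and no pair of conditions overlapped. The mean was 6.10-fold lower in MEFD3plu than in MEFD3min (log2 fold change -2.61, SE 0.126, edgeR adjusted p = 1.52e-11). It was 3.95-fold lower in MEFD5plu than in MEFD5min (log2 fold change -1.98, SE 0.119, edgeR adjusted p = 6.55e-10). In untreated culture Acta2 fell 3.61-fold from MEFD0 to MEFD3min (log2 fold change -1.85, edgeR adjusted p = 5.42e-10) and rose 5.22-fold from there to MEFD5min (log2 fold change 2.38, edgeR adjusted p = 1.23e-10). MEFD5plu was thus above MEFD3min, though below MEFD0. From MEFD3plu to MEFD5plu it rose 8.06-fold (log2 fold change 3.01, edgeR adjusted p = 7.77e-12).

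Actg2 (ENSMUSG00000059430, 6:83512905-83536265, minus strand), the γ-actin of visceral smooth muscle, was near the limit of detection. Its counts were 13, 31 and 29 in MEFD0, then 30, 3 and 19 in MEFD3min and 3, 0 and 1 in MEFD3plu. They were 47, 33 and 23 in MEFD5min and 19, 6 and 19 in MEFD5plu. The MEFD3min sample numbered 3 stood with the MEFD3plu samples, so that these groups overlapped. With MEFD3plu at or under 3 counts a sample, Actg2 was at least 5.92-fold lower in MEFD3plu than in MEFD3min by means (edgeR adjusted p = 0.00310). The approximate 95% interval of the log2 fold change was -5.41 to -1.79. The fitted log2 fold change of -3.60 was -2.96 without the MEFD3min sample numbered 1 and -4.89 without the MEFD3plu sample numbered 1. On day 5 the log2 fold change was -1.25 (SE 0.607, edgeR unadjusted p = 0.0561, adjusted p = 0.0984). Its approximate 95% interval of -2.44 to -0.06 lay below 0, although the test was not passed even before adjustment. Without the MEFD3min sample numbered 3 the edgeR adjusted p was 0.0358. From MEFD3plu to MEFD5plu Actg2 rose at least 4.74-fold by means (edgeR adjusted p = 0.00562). The approximate 95% interval of the log2 fold change was 1.46 to 5.16. The fitted value of 3.31 became 4.60 without the MEFD3plu sample numbered 1.

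Within the actin family, Acta2 held 8.87% ± 0.378 (SD, n = 3) of the summed CPM per kb in MEFD0. The share was 5.50% ± 1.04 in MEFD3min and 1.34% ± 0.247 in MEFD3plu, and on day 5 it was 14.0% ± 0.790 in MEFD5min against 7.53% ± 0.269 in MEFD5plu. The cytoplasmic actins Actb and Actg1 made up nearly all the rest, and Actg2 stayed at or below 0.0503% on average. The summed actin level itself was 1637 CPM per kb in MEFD0, 734 in MEFD3min and 493 in MEFD3plu on day 3, then 1499 in MEFD5min and 706 in MEFD5plu. The family sum and the share of Acta2 were thus both lowest in MEFD3plu.

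**Figure D3:**
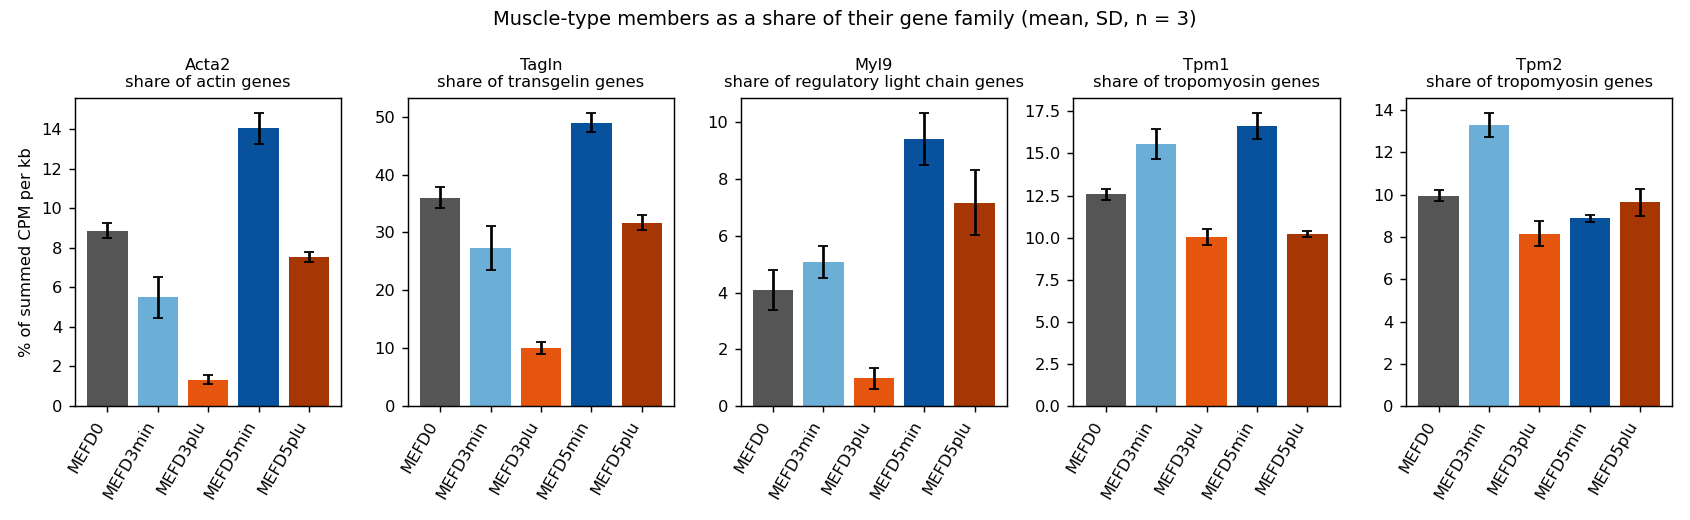
Share of the summed CPM per kb of a gene family held by Acta2, Tagln, Myl9, Tpm1 and Tpm2 in each condition (mean, bars SD, n = 3; y axes start at 0). The Acta2, Tagln and Myl9 shares were lowest in MEFD3plu at 1.34%, 9.99% and 0.977%, while the tropomyosin shares varied less.

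Tagln (ENSMUSG00000032085, 9:45929619-45936058, minus strand), transgelin or SM22α, had the pattern closest to Acta2 among the 10 genes (Pearson r = 0.998 across the 15 samples, which share libraries and conditions). Its CPM was 179.6, 183 and 215 in MEFD0, then 46.1, 41.2 and 64.7 in MEFD3min and 6.95, 5.79 and 8.12 in MEFD3plu. It was 277, 334 and 312 in MEFD5min and 78.6, 83.1 and 75.7 in MEFD5plu. No pair of conditions overlapped. Tagln was 7.26-fold lower in MEFD3plu than in MEFD3min (log2 fold change -2.86, SE 0.160, edgeR adjusted p = 1.04e-10) and 3.89-fold lower in MEFD5plu than in MEFD5min (log2 fold change -1.96, SE 0.144, edgeR adjusted p = 9.60e-09). In untreated culture it fell 3.80-fold to MEFD3min and then rose 6.08-fold to MEFD5min (log2 fold changes -1.92 and 2.60, edgeR adjusted p = 4.43e-09 and 4.84e-10). From MEFD3plu to MEFD5plu it rose 11.4-fold (log2 fold change 3.51, edgeR adjusted p = 1.90e-11). Tagln held 36.0% of the summed transgelin level (Tagln, Tagln2 and Tagln3) in MEFD0 and 27.3% in MEFD3min. It held 9.99% in MEFD3plu, 49.0% in MEFD5min and 31.7% in MEFD5plu. Of its exon bases, 67.9% lie antisense to Pcsk7 and Gm48529, and the strand setting of the counting is not given in the sources used here. Pcsk7, a proprotein convertase gene, had mean CPM of 30.8 in MEFD3min and 44.0 in MEFD3plu and a log2 fold change of 0.51 on day 3, opposite in sign to Tagln.

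Cnn1 (ENSMUSG00000001349, 9:22099216-22109630, plus strand), basic calponin and a marker of mature smooth muscle, was scarce throughout. Its counts were 27, 26 and 43 in MEFD0, then 2, 2 and 8 in MEFD3min and 1, 0 and 3 in MEFD3plu. They were 29, 18 and 39 in MEFD5min and 5, 10 and 18 in MEFD5plu. The MEFD3min and MEFD3plu samples overlapped, and all were below MEFD0 and MEFD5min. A decrease on day 3 was not detectable at this depth (edgeR adjusted p = 0.175, 95% interval of the log2 fold change -3.33 to 0.29). From MEFD0 to MEFD3min Cnn1 fell 7.31-fold (log2 fold change -2.87, SE 0.592, edgeR adjusted p = 0.000471), and fell by 3.90 on the log2 scale without the MEFD3min sample numbered 4. It then rose 6.71-fold to MEFD5min (log2 fold change 2.75, edgeR adjusted p = 0.00127), or by 3.78 on the log2 scale without that sample. On day 5 it was 2.53-fold lower in MEFD5plu than in MEFD5min (log2 fold change -1.34, SE 0.516, edgeR adjusted p = 0.0394). That call was lost in 6 of the fits that left out 1 sample, with adjusted p up to 0.160: those without MEFD0 sample 1, without any of the MEFD5min samples, and without MEFD5plu sample 1 or 3. From MEFD3plu to MEFD5plu Cnn1 rose at least 3.61-fold by means (edgeR adjusted p = 0.00391). The approximate 95% interval of the log2 fold change was 1.38 to 4.47, and the fitted value of 2.93 became 4.08 without the MEFD3plu sample numbered 4.

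Cald1 (ENSMUSG00000029761, 6:34598500-34775473, plus strand), caldesmon, had the smallest day 3 decrease of the 5 genes above 100 CPM in MEFD0. Its CPM was 905, 889 and 883 in MEFD0, then 813, 768 and 842 in MEFD3min and 498, 455 and 497 in MEFD3plu. It was 1194, 1219 and 1198 in MEFD5min and 919, 914 and 929 in MEFD5plu. Treated and untreated samples did not overlap on either day, and the MEFD5plu samples lay above those of MEFD0. Cald1 was 1.67-fold lower in MEFD3plu than in MEFD3min (log2 fold change -0.74, SE 0.0728, edgeR adjusted p = 1.54e-07). It was 1.31-fold lower in MEFD5plu than in MEFD5min (log2 fold change -0.39, SE 0.0725, edgeR adjusted p = 0.000293). From MEFD0 to MEFD3min its log2 fold change of -0.14 did not pass the test (edgeR adjusted p = 0.0979), but it did with DESeq2 (-0.16, adjusted p = 0.016) and when scaled by total counts alone (-0.27, adjusted p = 0.00251). It rose 1.49-fold from MEFD3min to MEFD5min and 1.90-fold from MEFD3plu to MEFD5plu (edgeR adjusted p = 6.56e-06 and 1.22e-08).

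Tpm1 (ENSMUSG00000032366, 9:67022590-67049406, minus strand) and Tpm2 (ENSMUSG00000028464, 4:43514711-43523765, minus strand) encode tropomyosins, coiled coils that lie along the actin filament. The CPM of Tpm1 was 666, 680.5 and 676 in MEFD0, then 465, 466 and 546 in MEFD3min and 113, 114 and 116 in MEFD3plu. It was 905, 993 and 943 in MEFD5min and 407, 403 and 403 in MEFD5plu. No pair of conditions overlapped. Tpm1 was 4.29-fold lower in MEFD3plu than in MEFD3min (log2 fold change -2.10, SE 0.0801, edgeR adjusted p = 9.45e-13) and 2.34-fold lower in MEFD5plu than in MEFD5min (log2 fold change -1.23, SE 0.0778, edgeR adjusted p = 1.43e-09). MEFD5plu stayed below MEFD3min, although Tpm1 rose 3.52-fold from MEFD3plu (edgeR adjusted p = 1.04e-11). In untreated culture it fell by 0.45 on the log2 scale to MEFD3min and rose by 0.94 to MEFD5min (edgeR adjusted p = 7.00e-05 and 3.88e-08).

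The CPM of Tpm2 was 228, 238 and 252 in MEFD0, then 180.2, 176 and 210.5 in MEFD3min and 40.0, 42.9 and 42.5 in MEFD3plu. It was 227, 225 and 227 in MEFD5min and 181, 172 and 161 in MEFD5plu. The MEFD3plu samples stood alone, and the MEFD5plu and MEFD3min samples overlapped. Tpm2 was 4.52-fold lower in MEFD3plu than in MEFD3min (log2 fold change -2.18, SE 0.0838, edgeR adjusted p = 1.05e-12). On day 5 it was only 1.32-fold lower in MEFD5plu than in MEFD5min (log2 fold change -0.40, SE 0.0796, edgeR adjusted p = 0.000463). Its course in untreated culture was flat by comparison with Acta2, with log2 fold changes of -0.34 to MEFD3min and 0.26 from there to MEFD5min (edgeR adjusted p = 0.00133 and 0.0131). The second was lost without MEFD3min sample 1 (0.23, adjusted p = 0.0621), without a filter (adjusted p = 0.103) and in a fit of the compared samples alone (adjusted p = 0.0806). As shares of the tropomyosin family, Tpm1 went from 15.6% in MEFD3min to 10.0% in MEFD3plu and Tpm2 from 13.3% to 8.14%. The non-muscle gene Tpm4 held 63.3% to 73.9% of the family in all conditions. These shares use the union exon length, which understates Tpm1, and the counts of Tpm1 and Tpm2 include non-muscle isoforms.

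Myl9 (ENSMUSG00000067818, 2:156775420-156781658, plus strand) encodes the smooth muscle regulatory light chain of myosin. Its CPM was 8.23, 8.27 and 6.75 in MEFD0, then 7.64, 8.19 and 8.94 in MEFD3min and 1.09, 0.501 and 0.986 in MEFD3plu. It was 17.9, 19.8 and 19.4 in MEFD5min and 15.6, 12.0 and 14.0 in MEFD5plu. MEFD0 and MEFD3min overlapped, MEFD3plu was below all others, and both day 5 conditions were above MEFD0. The day 3 decrease was 9.58-fold (log2 fold change -3.26, SE 0.197, edgeR adjusted p = 2.94e-10). On day 5 Myl9 was 1.37-fold lower in MEFD5plu than in MEFD5min (log2 fold change -0.45, SE 0.145, edgeR adjusted p = 0.0159), a call lost without the MEFD5plu sample numbered 3 (-0.36, adjusted p = 0.0860). From MEFD3plu to MEFD5plu it rose 16.1-fold (log2 fold change 4.01, SE 0.194, edgeR adjusted p = 3.14e-11). Unlike Acta2 and Tagln, its log2 fold change from MEFD0 to MEFD3min was 0.09 (95% interval -0.21 to 0.39, edgeR adjusted p = 0.623). Myl9 held 5.09% ± 0.560 (SD, n = 3) of the summed regulatory light chain level in MEFD3min and 0.977% ± 0.364 in MEFD3plu, and Myl12a held most of the rest.

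Mylk (ENSMUSG00000022836, 16:34745210-35002420, plus strand), myosin light chain kinase, did not follow the other genes. Its CPM was 5.66, 6.52 and 4.52 in MEFD0, then 3.57, 4.88 and 3.43 in MEFD3min and 3.89, 4.89 and 3.69 in MEFD3plu. It was 4.63, 3.62 and 2.95 in MEFD5min and 10.5, 9.31 and 11.7 in MEFD5plu. The MEFD5plu samples were above all 12 others, which overlapped. On day 3 the log2 fold change was 0.06 (95% interval -0.33 to 0.46, edgeR adjusted p = 0.810). On day 5 Mylk was 2.81-fold higher in MEFD5plu than in MEFD5min (log2 fold change 1.49, SE 0.194, edgeR adjusted p = 7.87e-06). It rose 2.52-fold from MEFD3plu to MEFD5plu (log2 fold change 1.34, edgeR adjusted p = 1.39e-05). Its decreases from MEFD0 to MEFD3min (log2 fold change -0.49, edgeR adjusted p = 0.0418) and to MEFD5min (-0.58, adjusted p = 0.0245) were small. The first was lost without MEFD0 sample 1 or 3, MEFD3min sample 1 or 4, or MEFD5plu sample 1 (adjusted p up to 0.181), and also with at least 10 counts asked of every sample (0.0516) and in a fit of the compared samples alone (0.0652). The second was lost without MEFD0 sample 1 or 3 or MEFD5min sample 3 or 4 (adjusted p up to 0.120). Its correlation with Acta2 across the 15 samples was r = 0.0429. Of its exon bases, 6.85% lie antisense to other genes.

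Lmod1 (ENSMUSG00000048096, 1:135324807-135368065, plus strand), leiomodin 1, moved opposite to Acta2 on day 3 but at very low counts. Its counts were 1, 7 and 9 in MEFD0, then 1, 2 and 7 in MEFD3min and 19, 21 and 22 in MEFD3plu. They were 6, 8 and 6 in MEFD5min and 8, 12 and 6 in MEFD5plu. The MEFD3plu samples were above all others, which overlapped. Because Lmod1 entered the test through MEFD3plu, its calls that involve MEFD3plu are descriptions. The log2 fold change on day 3 was 2.58 (SE 0.607, edgeR adjusted p = 0.00159), and 3.75 without the MEFD3min sample numbered 4. On day 5 it was 0.36 (95% interval -0.81 to 1.53, edgeR adjusted p = 0.645). The decrease from MEFD3plu to MEFD5plu was called weakly (log2 fold change -1.25, edgeR adjusted p = 0.0476). It was lost with DESeq2 (adjusted p = 0.0686), without a filter (adjusted p = 0.0828) and in 11 of the fits without 1 sample (adjusted p up to 0.161). Those fits left out MEFD0 sample 3 or 4, MEFD3min sample 3, MEFD5plu sample 1 or 4, or any sample of MEFD3plu or MEFD5min. The increase from MEFD3min to MEFD5min, which did not pass the test (log2 fold change 0.97, edgeR adjusted p = 0.277), passed it without MEFD3min sample 4 (2.13, adjusted p = 0.0445).

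Whether the effect of treatment differed between the days was tested as an interaction, the day 3 log2 fold change minus that of day 5. MEFD5plu cells were formerly treated, so day and withdrawal of the agents cannot be told apart in this difference. The interaction was negative and passed the test for 7 genes (background 25.8%), positive for Lmod1 (background 22.6%), and did not pass for Cnn1 and Actg2. The Lmod1 call is a description, because Lmod1 entered the test through MEFD3plu, in which it is high. The median was -0.88 over the 10 genes and -0.03 over all genes. It was most negative for Myl9 (-2.81, SE 0.248, edgeR adjusted p = 1.17e-07) and Tpm2 (-1.77, SE 0.114, edgeR adjusted p = 2.34e-09). It was -0.90 for Tagln, -0.87 for Tpm1, -0.63 for Acta2 and -0.35 for Cald1. The Mylk value of -1.43 stood on log2 fold changes of 0.06 on day 3 and 1.49 on day 5. Scaling by total counts alone shifted the median of all genes from 0.010 to -0.152 on day 5, from -0.033 to 0.149 in the interaction and from 0.041 to -0.076 for MEFD3min/MEFD0. With it the share of called genes that were higher went from 52.1% to 37.0% on day 5, from 46.7% to 59.5% in the interaction and from 49.7% to 62.7% in MEFD5min/MEFD3min. The interaction of Cald1 was then -0.17 (adjusted p = 0.155), and the other 7 called interactions passed the test under that scaling.

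The genes whose profile over the 15 samples was most like the mean standardised profile of the 10 genes were sought among 9581 genes, as a description. They were Tpm4 (Pearson r = 0.988), Ehd4 (0.986), Nup54 (0.985), Adss (0.985) and Ankrd1 (0.984). For Acta2 they were Rai14 (0.992), Tes (0.990), Pdlim1 (0.989), Slc25a13 (0.988) and Fam107b (0.987). Mean CPM of Tes, a focal adhesion protein gene, was 163 in MEFD0, 50.2 in MEFD3min and 8.35 in MEFD3plu on day 3, then 153 in MEFD5min and 51.4 in MEFD5plu. By Spearman's rank correlation, 0 of these 5 genes were among the nearest 5 for either profile, so the names depend on the measure.

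Other smooth muscle genes did not share 1 direction. Of 12 listed, 11 were tested, 5 of which were higher and 6 lower in MEFD3plu than in MEFD3min. On day 5, 3 were higher and 6 lower (medians -0.45 and -0.48 on day 3 and day 5). Over all genes tested, 28.0% were called in each direction on day 3, and 26.3% higher and 24.2% lower on day 5. Smtn (smoothelin) was higher on day 3 (0.97) and lower on day 5 (-1.37), while Filip1l (-2.41 and -0.58) and Pdlim7 (-0.95 and -1.13) were lower on both (edgeR adjusted p at most 8.28e-05 for these). Myh11, the smooth muscle myosin heavy chain, and Des, desmin, were higher on both days (Myh11 1.91 and 3.86, Des 1.99 and 3.76) but reached at most 46 and 70 counts in a sample. Their mean levels in MEFD0, MEFD3min and MEFD5min were under the filter level of 0.295 CPM. Both thus entered the test through treated conditions, in which they are high. Their calls, which the counts of this list include, are descriptions. Ppp1r14a, an inhibitor of myosin phosphatase, had 0 counts in all MEFD3plu samples and a mean of 0.460 CPM in MEFD3min.

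The non-muscle counterparts of these proteins fell together on day 3. Of 16 genes, 15 were lower on day 3 (background 28.0%), where none had a log2 fold change above 0. On day 5, 12 were lower (background 24.2%) and 1 higher, Myl12b (background 26.3%). The medians were -0.81 on day 3 and -0.57 on day 5. Cnn2 (log2 fold changes -1.69 and -0.62), Tpm4 (-1.30 and -0.41), Myh10, non-muscle myosin IIB (-1.29 and -1.28), and Tagln2 (-1.13 and -0.91) were lower on both days (edgeR adjusted p at most 0.00224). The cytoplasmic actins had log2 fold changes of -0.40 and -0.91 (Actb) and of -0.67 and -1.10 (Actg1) on day 3 and day 5, beside -2.61 and -1.98 for Acta2.

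The regulators given here are Srf, its coactivators and members of the TEAD family. Srf had a log2 fold change of 0.02 on day 3 (edgeR adjusted p = 0.861) and -0.65 on day 5 (edgeR adjusted p = 6.15e-05). Mrtfa had -0.08 (adjusted p = 0.725) and -1.37 (adjusted p = 1.04e-05) in the same edgeR comparisons. Mrtfb was higher on day 3 (0.63) and lower on day 5 (-0.58), and Tead4 likewise (0.99 and -1.38). Tead2 (-1.16 and -0.21) was lower on both days. The difference between the days passed the test for Srf (0.68), Mrtfa (1.29) and Mrtfb (1.21), with edgeR adjusted p of 0.00107, 0.000512 and 0.000217, and was opposite in sign to that of Acta2. It was also positive for Tead4 (2.37, edgeR adjusted p = 2.86e-07), and it was negative, as for Acta2, for Tead2 (-0.95, edgeR adjusted p = 1.23e-06). Myocd, myocardin, the muscle-restricted SRF coactivator, reached at most 1 count in a sample and was not tested.

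Of 8 mechanosensitive target genes outside the contractile apparatus, 4 were higher and 3 lower on day 3 (background 28.0% in each direction). On day 5, 5 were lower (background 24.2%) and none had a log2 fold change above 0. The medians were 0.21 on day 3 and -0.76 on day 5. Ankrd1 (log2 fold changes -3.27 and -1.69) and Ccn2 (-2.38 and -2.35) fell on both days (edgeR adjusted p at most 3.14e-07). Fhl2 fell on day 3 (-1.95) with -0.20 on day 5 (edgeR adjusted p = 0.0585). Amotl2 rose on day 3 (1.45) with -0.08 on day 5 (edgeR adjusted p = 0.583). Thus this list held genes that fell with the contractile genes and genes that rose.

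**Figure D4:**
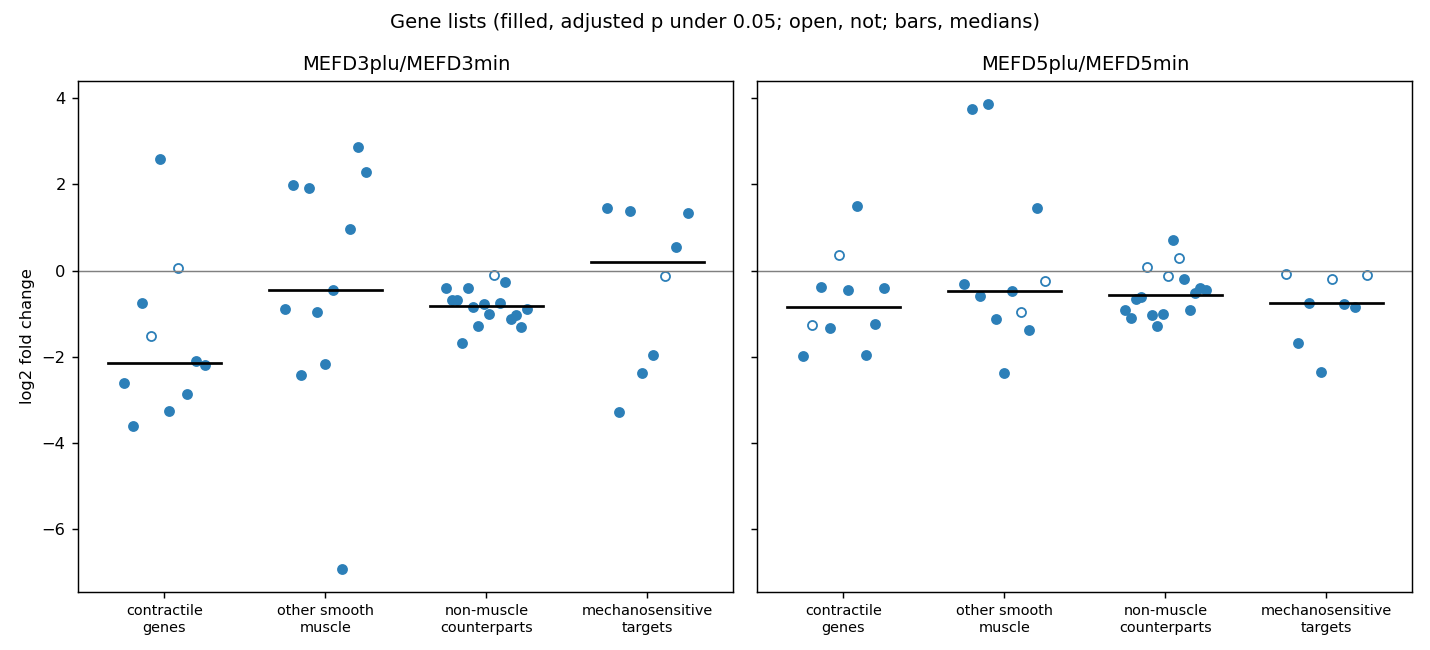
Log2 fold change (y axis) of every tested gene of the contractile group and of 3 other lists, in MEFD3plu/MEFD3min and MEFD5plu/MEFD5min. Filled points passed an adjusted p of 0.05, open points did not, and bars are medians. The medians of the contractile genes were -2.14 and -0.84 (-2.14 and -0.43 without Cnn1 and Actg2), and those of the non-muscle counterparts -0.81 and -0.57. The lowest point on day 3 is Ppp1r14a, whose fitted value rests on 0 counts in MEFD3plu.

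Markers of other cell types were measured beside these values, and their part in the results was not tested. For the marker counts below, the shares over all genes tested were 28.0% called in each direction on day 3. On day 5 they were 26.3% called higher and 24.2% called lower. Adipocyte markers summed to 5897 to 7868 CPM in MEFD3plu and 7755 to 9328 in MEFD5plu, against 16.8 to 32.5 in the other conditions, and all 7 tested of 8 were higher on both days, with Lep at the count floor. Fibroblast markers summed to 8383 to 9429 CPM in MEFD0, 21139 to 28382 in MEFD3min and 10962 to 12127 in MEFD3plu on day 3, then 12159 to 13918 in MEFD5min and 11577 to 12848 in MEFD5plu. Of 10 fibroblast markers, 1 was higher and 8 lower on day 3, and 3 were higher and 2 lower on day 5. Among these Lum, Dcn, S100a4 and Thy1 had day 3 log2 fold changes of -4.11, -2.65, -2.53 and -2.34. Smooth muscle markers summed to 349 to 385 CPM in MEFD0, 107 to 126 in MEFD3min and 64.1 to 76.0 in MEFD3plu, and on day 5 to 509 to 565 in MEFD5min against 144 to 152 in MEFD5plu. Of 8, 7 were tested, 5 were higher and 1 lower on day 3, and 2 higher and 3 lower on day 5. That list holds Acta2, Cnn1 and Lmod1, and of its defining genes Myocd was at 0 or 1 count in every sample. Most of the sum was Acta2 (mean 88.3 CPM in MEFD3min and 14.5 in MEFD3plu) and Smtn (26.5 and 52.0). The sum is therefore not separate from the contractile genes. Myh11 and Des reached at most 46 and 70 counts in a sample, and both were higher in MEFD5plu than in MEFD5min (log2 fold changes of 3.86 and 3.76). Myh11, Des and Lmod1 entered the test through treated conditions, in which they are high. Their calls, counted above among the smooth muscle markers, are therefore descriptions.

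Pericyte markers summed to 183 to 266 CPM in MEFD0, 183 to 321 in MEFD3min and 161 to 177 in MEFD3plu on day 3, then 98.8 to 136 in MEFD5min and 96.3 to 124 in MEFD5plu. Of 7, 5 were tested, with 2 higher and 1 lower on day 3 and 1 higher and 2 lower on day 5, and Kcnj8 was at the floor. Most of the sum was Cspg4 and Pdgfrb (means of 133 and 85.0 CPM in MEFD0), and Pdgfrb is also in the fibroblast list. Rgs5 had a mean of at most 0.476 CPM in any condition, and Abcc9 reached at most 4 counts in a sample. Of 12 striated muscle markers, 9 had at most 3 counts in every sample, among them Myod1, Myog and Ckm, and the sum never passed 1.91 CPM. Both tested members did not pass on day 3, and Acta1 was lower on day 5. Endothelial markers (2 of 7 tested, with Tie1 and Cldn5 at the floor) summed to 1.00 to 18.7 CPM, and 1 was lower on each day, Cdh5. Macrophage markers (4 of 7 tested, with Adgre1 and Fcgr1 at the floor) summed to 6.01 to 15.1 CPM, with 2 lower on each day. Epithelial markers (1 of 6 tested, Krt8, with Epcam and Cdh1 at the floor) never passed 1.31 CPM, and Krt8 was lower on day 3 and higher on day 5.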

How the data were processed

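Each sample had a table of raw read counts per Ensembl gene, deposited by the authors. Per the labels, reads came from TruSeq libraries of total RNA, and the submitters' processing notes name TopHat2 (2.1.0), HTSeq, DESeq2 and the build GRCm38/mm10. The labels and the study's methods name different TruSeq kits, only one of which keeps strand. The annotation release, the strand setting and the treatment of multi-mapped reads are not given in the sources used here. Counts on antisense or shared exons therefore carry an uncertainty that the tables do not resolve.

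Identifiers were paired with symbols and exon coordinates from GENCODE M21 (46091 of 46603 matched). Counts were fitted with edgeR 4.0.16 (R 4.3.3) over all 15 samples, after filterByExpr (15997 of 29186 genes with any count) and TMM scaling, with the quasi-likelihood test, no covariates and Benjamini-Hochberg adjustment over all genes tested (adjusted p under 0.05 called). There were 7 comparisons. CPM values were scaled by TMM, and the SE is the absolute log2 fold change divided by the square root of F. The fit was run on simulated counts with the same spread for all genes and known changes in well-counted genes of MEFD3plu. That run does not bear on the scarce members or on the interaction. With a condition at or under 3 counts in every sample, a fold is given as a bound against 3 counts a sample. Such a bound is on the mean of the other condition and leaves out its spread. Intervals are approximate 95% intervals that take the estimate as normally distributed with this SE. They are narrower than the quasi-likelihood test implies, and they cover the spread between these samples only.

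The members, lists and promoter elements were chosen with earlier results of these data known. Named were all members, up to 4 genes of each other list with the largest day 3 log2 fold change and a mean log2 CPM of at least 3, members of counts of 5 or fewer, and the 5 genes most like each profile. Srf, Mrtfa, Actb, Actg1, Myh11, Des, Ppp1r14a, Rgs5, Abcc9 and the levels of Tes were named after their values were seen. Some genes of the lists are not reported here. What the sample numbers share is not stated. Deviations from the condition means correlated between same-numbered MEFD3plu and MEFD3min samples (r = 0.143, 0.228 and 0.360). They correlated more weakly between same-numbered MEFD3min and MEFD0 samples (r = 0.0837, 0.132 and 0.18). The main tests were unpaired in every comparison, and a replicate block was fitted only as an alternative. Alternatives were DESeq2 1.42.0, its size factors, total counts alone, no filter, at least 10 counts in every sample, the compared samples alone, a replicate block, and leaving out each sample.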

Additional observations from a re-analysis of the deposited data

Results flagged for a closer look

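The treatment effect differed between day 3 and day 5, by the interaction in the edgeR quasi-likelihood test, for 8 of the 10 contractile genes, beside 48.5% of all 15997 genes tested. Day and withdrawal of the agents cannot be told apart here, as MEFD5plu cells were formerly treated. The values are the day 3 log2 fold change minus that of day 5. It was -0.63 for Acta2 (adjusted p = 0.00499), -0.90 for Tagln (0.00182), -2.81 for Myl9 (1.17e-07), -0.87 for Tpm1 (5.58e-06), -1.77 for Tpm2 (2.34e-09) and -0.35 for Cald1 (0.00887), where the decrease was larger on day 3. It was -1.43 for Mylk (adjusted p = 0.000461), which was higher in MEFD5plu and had a log2 fold change of 0.06 on day 3. It was 2.22 for Lmod1 (adjusted p = 0.0438), which was higher in MEFD3plu at 19 to 22 counts a sample, and which lost the call in 10 of the fits without 1 sample: those without MEFD0 sample 3, MEFD3min sample 1 or 3, any MEFD3plu sample, MEFD5min sample 1 or 3, or MEFD5plu sample 1 or 4 (adjusted p up to 0.121). Lmod1 reached the filter level in all samples of MEFD3plu only, so that it was tested through the condition in which it is high and its value is a description. Without the MEFD3min sample numbered 4 it was 3.39. Groups of 3 were not examined for single outlying samples.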

How the results depend on the processing

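Over 22 alternatives, 51 of 70 gene results kept their direction and their side of the threshold in every fit that held the gene, as did 45 of the 53 called ones, and no called result changed sign. The number of contractile genes called stayed at 6 to 8 on day 3, 6 to 9 on day 5, 7 to 8 in the interaction, 4 to 7 in MEFD3min/MEFD0, 5 to 6 in MEFD5min/MEFD0, 6 to 8 in MEFD5min/MEFD3min and 7 to 10 in MEFD5plu/MEFD3plu. With at least 10 counts asked of every sample only 7 of the genes could be tested. Under a replicate block the number called was 8, 8, 8, 6, 6, 7 and 10 in that order, and the block changed no call of a contractile gene. Such numbers pool both directions, so they describe how stable the calls were and not an excess over all genes. In the main fit of MEFD3min/MEFD0, 28.6% of all genes tested were called lower and 31.4% higher. A pooled count of 6 of the 10 genes there does not set them apart, although all 6 were lower. Changes of sign concerned uncalled values. With total counts alone these were Cnn1 in the interaction (0.00), Myl9 in MEFD3min/MEFD0 (-0.03) and Mylk in MEFD5min/MEFD3min (0.01). Leaving out 1 sample, they ranged from -0.07 to 0.81 for Lmod1 in MEFD5min/MEFD0, 0.00 to 0.14 for Myl9 and -0.99 to 0.18 for Actg2 in MEFD3min/MEFD0, -0.33 to 0.10 for Cnn1 in MEFD5min/MEFD0, -1.33 to 0.85 for Cnn1 in the interaction, and -0.07 to 0.25 and -0.28 to 0.09 for Mylk in MEFD3plu/MEFD3min and MEFD5min/MEFD3min. Without a filter Actg2 passed on day 5 (-1.25, adjusted p = 0.0223) and in the interaction (-2.37, adjusted p = 0.0241), and the interaction of Lmod1 was lost (2.20, adjusted p = 0.0706). Actg2 also passed on day 5 among the compared samples alone (-1.24, adjusted p = 0.0309), and in the interaction without MEFD3min sample 3 (-2.88, adjusted p = 0.0152). The cause was not tested. Counts under 50 a sample limit Cnn1, Actg2 and Lmod1.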

Other observations

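The non-muscle members of the families also shifted in proportion, described here with no test. Cnn2 held 47.5% ± 0.429 (SD, n = 3) of the summed calponin CPM per kb in MEFD3min and 27.2% ± 0.563 in MEFD3plu, and Cnn3 held 52.5% ± 0.425 and 72.8% ± 0.552. Myl12b went from 13.1% ± 0.532 of the regulatory light chains in MEFD3min to 22.8% ± 0.813 in MEFD3plu. Tpm3 went from 7.89% ± 0.658 to 10.6% ± 0.820 of the tropomyosins. Actb went from 54.7% ± 0.943 to 61.5% ± 0.620 of the actins.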
